A study of Mus musculus with 12 samples.

Results

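The striatum of mice that lack cGAS, the enzyme that senses cytosolic DNA, was compared with the striatum of control mice, in animals that carry no Huntington's disease allele. The comparison used 6 of the 12 libraries of the series, cGAS-KO A1 to A3 against WT A1 to A3, and the 20209 of 55487 listed genes that had at least 10 counts in at least 3 of these 6 libraries. Each library is poly(A) RNA from the striatal tissue of 1 mouse, with 3 mice per group. WT mice were C57BL/6J controls and cGAS-KO mice were cGAS knockouts. The other 6 libraries came from HD mice, heterozygous for the zQ175 neo-deleted knock-in allele of Huntington's disease, and from cGAS-KO; HD mice, which combine both alleles. The series was designed to ask if removal of cGAS modifies disease in knock-in animals, and the comparison described here gives the effect of the knockout on a normal background. The sources used here do not give the part of Cgas that the knockout allele removes, the strain on which it was kept, or the sex, age, litter and time of death of the mice.

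cGAS binds double-stranded DNA in the cytosol and makes the cyclic dinucleotide cGAMP, which binds STING on the endoplasmic reticulum. STING then moves to the Golgi, is palmitoylated and recruits the kinase TBK1, which phosphorylates the transcription factor IRF3, and type I interferon and interferon-stimulated genes such as Isg15 follow. In the brain the pathway is mainly known from microglia, and in a healthy, uninfected striatum interferon genes are transcribed at low levels.

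The 6 libraries held between 59195327 and 71859743 counts. Medium spiny neuron genes, which mark the principal cells of the striatum, were abundant in every one, with Ppp1r1b, the dopamine-regulated phosphatase inhibitor DARPP-32, between 717 and 1050 CPM (read counts relative to library size, scaled by the TMM factors). The libraries of a group differed in 2 further properties. WT A1 and cGAS-KO A3 had 82959 and 93627 counts of the X-inactivation RNA Xist and at most 5 counts of the Y-linked Ddx3y, whereas the other 4 had 35 to 178 counts of Xist and at least 4962 of Ddx3y. The same 2 libraries departed most from their groups in tissue content, as described below, so that within each group sex-linked expression and tissue content cannot be told apart. Each group held 1 such library, and these 2 departed in opposite directions along the cortical and choroid plexus lists. Mitochondrially encoded genes took 11.5% of the counts in cGAS-KO A3, 6.94% in WT A1 and 5.91% to 6.79% in the other 4.

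Cgas itself (ENSMUSG00000032344) lies on the minus strand of chr9:78430526-78443237 in GRCm38 and overlaps the end of the pseudogene Gm8093 on the other strand. It is a rare transcript in striatum. The files hold 105, 79 and 93 counts of it in WT A1, A2 and A3, and 54, 36 and 52 in cGAS-KO A1, A2 and A3. Scaled for depth this was 1.56, 1.35 and 1.32 CPM in WT and 0.875, 0.572 and 0.878 CPM in cGAS-KO, with means of 1.41 ± 0.130 and 0.775 ± 0.176 CPM (SD, n = 3 each). All 3 cGAS-KO libraries lay below all 3 WT libraries, yet every one of them kept reads assigned to the gene. The fitted log2 difference, cGAS-KO minus WT, was -0.86 ± 0.24 (SE), with a 95% interval of -1.38 to -0.35, so that 0.385 to 0.783 of the WT level remained. In edgeR's quasi-likelihood test over all genes it did not pass (Benjamini-Hochberg adjusted p = 0.917, unadjusted p = 0.0030). Counts over the whole gene can include reads from exons that the allele leaves in place, and so check the labels only in part. In HD and cGAS-KO; HD mice the gene had 249 and 220 counts over 3 libraries each, or 1.16 ± 0.0972 and 1.03 ± 0.204 CPM. Those 2 groups overlapped, at 1.14, 1.07 and 1.26 CPM in HD and 1.15, 1.15 and 0.798 CPM in cGAS-KO; HD, so that the gene's own reads do not bear out the cGAS-KO; HD label. Of 101 annotated genes that start within 2 Mb of Cgas, 28 were tested, with a median log2 difference of -0.03. In this neighbourhood 2 genes had an unadjusted p under 0.05 (beside 4.21% of all genes), Cgas and Cox7a2. Cox7a2, a subunit of cytochrome c oxidase, measured 49.2, 49.5 and 49.9 CPM in WT and 55.6, 55.5 and 59.1 CPM in cGAS-KO, with higher values in all 3 knockouts. Htt, which carries no knock-in allele in either group, measured 169, 172 and 179 CPM in WT and 178, 177 and 155 CPM in cGAS-KO, with overlapping groups and a log2 difference of -0.03 ± 0.08.

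No gene passed the test between cGAS-KO and WT striatum. At a Benjamini-Hochberg adjusted p under 0.05, edgeR's quasi-likelihood test called 0 of 20209 genes (0%), and the smallest adjusted p was 0.422, for the clock repressor Ciart. An unadjusted p under 0.05 was found for 851 genes (4.21%), of which 458 were lower in cGAS-KO (2.27%) and 393 higher (1.94%). DESeq2's Wald test on the same counts called 7 genes, all of which are among the genes with the smallest p described below, with 961 at an unadjusted p under 0.05. limma-voom called 0, with 833 at an unadjusted p under 0.05. The same edgeR fit called 872 genes between HD and WT (4.31%). The values of the 3 cGAS-KO libraries lay all below those of WT for 897 genes (4.44%) and all above for 861 genes (4.26%).

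The size of change that the data leave possible differed with the level of the gene. The median log2 difference over all genes was 0.00 and the median absolute difference was 0.12, with 95% of genes within 0.64 either way. For 15404 genes (76.2%) the whole 95% interval of the difference lay within 2-fold, and for 11593 (57.4%) within 1.5-fold. Among the 2402 genes with a mean of 100 CPM or more over the 6 libraries, the interval reached a median of 0.20 log2 (1.15-fold) either side of the estimate, and 98.8% of them were bounded within 2-fold. The 8013 genes of 10 to 100 CPM were measured almost as tightly, with 1.17-fold either side and 98.7% bounded. Of the 4813 genes of 1 to 10 CPM, 86.0% were bounded, with 1.38-fold either side. Below 1 CPM, where many interferon genes lie, the interval reached 2.01-fold either side and only 19.8% of 4981 genes were bounded. Some abundant genes were open too, where replicates differed: the interval of Ttr, a choroid plexus gene, reached from 0.0912-fold to 9.91-fold of WT, and that of Slc17a7, a cortical gene, from 0.254-fold to 3.96-fold. Below 1 CPM a change of 2-fold was not excluded by the interval for most genes. An estimated difference above 2-fold was found for 280 genes, only 15 of them with a mean of at least 1 CPM.

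**Figure D1:**
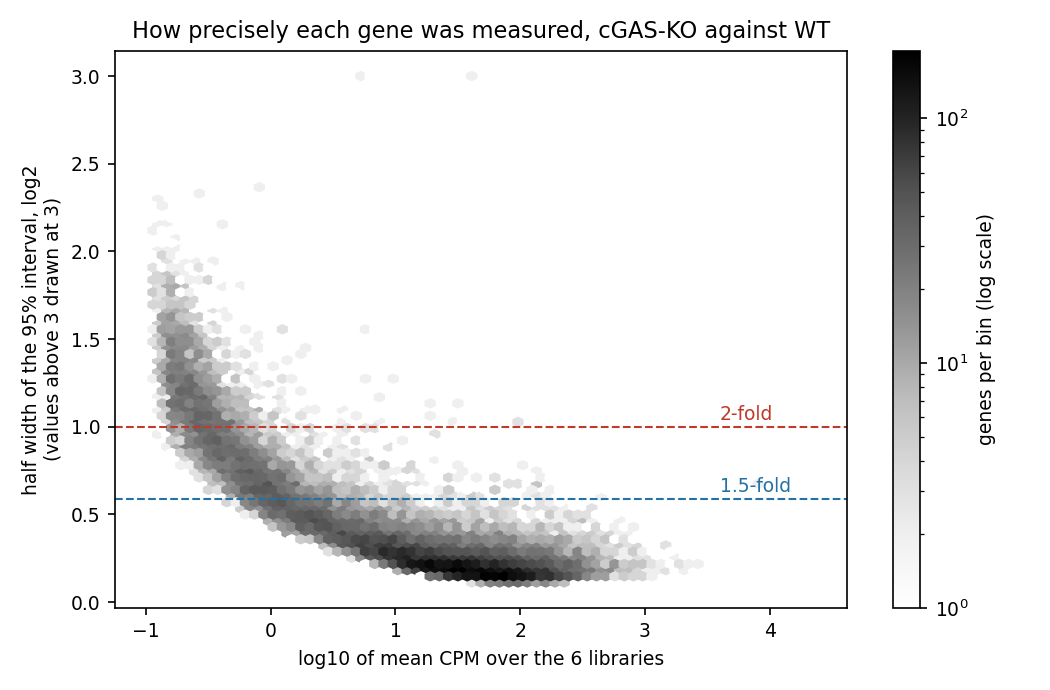
Precision of the comparison for each of the 20209 genes. The x axis is log10 of the mean CPM over the 6 libraries and the y axis the distance from the estimate to either end of the 95% interval on the log2 scale, shaded by the number of genes per bin on a log scale, with dashed lines at 1.5-fold and 2-fold; nearly all genes above 10 CPM lie under the lower line, and most genes below 1 CPM lie near or above the upper one.

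The 12 genes with the smallest p among those lower in cGAS-KO, none of which passed, were led by Ciart, a circadian repressor that acts on the CLOCK-BMAL1 activator, and included another clock output gene, Dbp. Ciart (ENSMUSG00000038550, minus strand of chr3:95878503-95882251, overlapping C920021L13Rik on the other strand) measured 22.9, 24.3 and 28.7 CPM in WT A1, A2 and A3 and 15.3, 16.8 and 15.7 CPM in cGAS-KO A1, A2 and A3. Every knockout library was below every WT library, by more than the range of either group. The log2 difference was -0.66 ± 0.10 (95% interval -0.88 to -0.45, edgeR adjusted p = 0.422). Its promoter is shown because CLOCK-BMAL1 is known to bind the E-box CACGTG, a palindrome that reads the same on both strands. In the RefSeq promoter table (GRCm38.p6), which gives 250 bases before and 50 after each start, the Ciart promoter on chr3:95882179-95882478 (minus strand) holds 3 copies, printed in capitals, whose first bases lie at -116, -58 and -44 from the start. The promoter of Dbp on chr7:45704997-45705296 (plus strand) holds none in this window.
Ciart: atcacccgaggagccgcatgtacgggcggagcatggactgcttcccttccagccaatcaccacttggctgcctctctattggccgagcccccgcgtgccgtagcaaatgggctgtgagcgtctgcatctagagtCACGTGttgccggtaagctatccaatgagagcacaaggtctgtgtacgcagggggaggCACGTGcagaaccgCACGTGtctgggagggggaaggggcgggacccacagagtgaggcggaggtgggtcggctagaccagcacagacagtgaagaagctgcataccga
Dbp: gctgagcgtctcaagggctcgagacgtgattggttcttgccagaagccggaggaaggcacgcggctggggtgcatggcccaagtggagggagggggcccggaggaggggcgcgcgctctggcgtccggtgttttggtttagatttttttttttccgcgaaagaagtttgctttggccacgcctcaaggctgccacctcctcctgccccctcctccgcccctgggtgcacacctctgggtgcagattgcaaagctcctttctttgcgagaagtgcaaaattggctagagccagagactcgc
Of 32851 promoters of this length, 2349 (7.15%) hold at least 1 CACGTG and 29 (0.088%) hold 3 or more. A match describes the letters of the window and not a bound site.

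Dbp, a PAR bZIP transcription factor whose level follows the clock, measured 131, 130 and 137 CPM in WT and 111, 109 and 99.8 CPM in cGAS-KO, and the groups did not overlap. Its log2 difference was -0.31 ± 0.07. Of 19 genes on the clock list, 4 had an unadjusted p under 0.05 and a lower level, and 2 a higher one (beside 2.27% and 1.94% of all genes), with a list median of -0.05. Arntl, which encodes BMAL1 and runs opposite to Dbp over the day, measured 27.0, 29.3 and 29.2 CPM in WT and 34.9, 30.5 and 43.4 CPM in cGAS-KO, with every knockout library above every WT library. The other 3 clock genes of that count, chosen after their values were seen, were the repressor Per3 (65.1, 72.6 and 83.8 CPM in WT, 65.6, 61.8 and 55.4 in cGAS-KO), the repressor Bhlhe41 (72.1, 65.3 and 68.4 CPM, then 61.0, 65.2 and 58.0) and the activator Clock (111, 132 and 126 CPM, then 139, 124 and 176). The knockouts and controls overlapped for Per3 and Clock and were barely separated for Bhlhe41. The time of day at collection is unknown here, and its part in these values was not tested.

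Other genes of that set belonged to several classes. Xdh, xanthine dehydrogenase, which makes uric acid, measured 4.98, 4.77 and 4.59 CPM in WT and 2.85, 2.80 and 3.33 CPM in cGAS-KO, a log2 difference of -0.68 ± 0.15. Plin4, a lipid droplet coat protein, measured 8.01, 5.53 and 11.2 CPM in WT and 3.63, 4.24 and 2.80 CPM in cGAS-KO (-1.21 ± 0.28). Zfp647, a zinc finger gene, measured 3.14, 3.95 and 3.40 CPM in WT and 2.07, 2.43 and 1.96 CPM in cGAS-KO (-0.70 ± 0.17). None of the 3 overlapped between groups. The set also held 2 rare transcripts with known products, Npb, the precursor of neuropeptide B (0.639, 0.479 and 0.540 CPM in WT, 0.146, 0.143 and 0.0507 in cGAS-KO), and Plaur, the urokinase receptor (0.877, 0.856 and 0.981 CPM, then 0.454, 0.429 and 0.253). In these rare genes the intervals were wide, with a log2 difference for Npb of -2.26 and an interval of -3.28 to -1.24.

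Others of the genes lower in cGAS-KO were features whose counts are uncertain. CT010467.1, annotated as ribosomal RNA on chr17:39846353-39848827 and overlapped by Gm42418 and AY036118, measured 1972, 2004 and 1857 CPM in WT and 1145, 1367 and 1463 CPM in cGAS-KO (-0.55 ± 0.10). Ribosomal RNA is what poly(A) selection is meant to remove, and multicopy sequence can be split between loci in counting. Mir6236 measured 13.4, 9.40 and 10.3 CPM in WT and 6.74, 6.58 and 5.42 CPM in cGAS-KO, as reads of a library that was not made for small RNA. The pseudogenes Rpl28-ps3 and Olfr1372-ps1 were below 1 CPM in every library.

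The 12 genes with the smallest p among those higher in cGAS-KO, none of which passed, included abundant neuronal genes with small differences and rare transcripts with larger ones. Dach2, a transcription cofactor on the X chromosome, measured 0.907, 0.890 and 0.938 CPM in WT and 1.83, 1.70 and 1.52 CPM in cGAS-KO (0.88 ± 0.18). For this gene the high-Xist library was neither the lowest WT nor the highest cGAS-KO value. Foxp2, a transcription factor of striatal projection neurons and of deep cortical layers, measured 61.7, 60.1 and 68.4 CPM in WT and 77.8, 75.2 and 76.9 CPM in cGAS-KO (0.27 ± 0.08). Cdh8, a cadherin of neuronal circuits, measured 83.0, 81.5 and 81.6 CPM in WT and 101, 93.6 and 98.1 CPM in cGAS-KO (0.25 ± 0.07). Groups of these 3 genes did not overlap, and each difference was under 1.5-fold except that of Dach2. Cntnap5b, Thsd7a, Cr1l, Zfp719 and Rab30 had log2 differences of 0.39, 0.22, 0.34, 0.33 and 0.22, again without overlap. Gm12932, Gm6981 and 1700102H20Rik, also in this set, are noncoding genes or pseudogenes near or below 1 CPM, with log2 differences of up to 1.97, that of Gm12932.

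**Figure D2:**
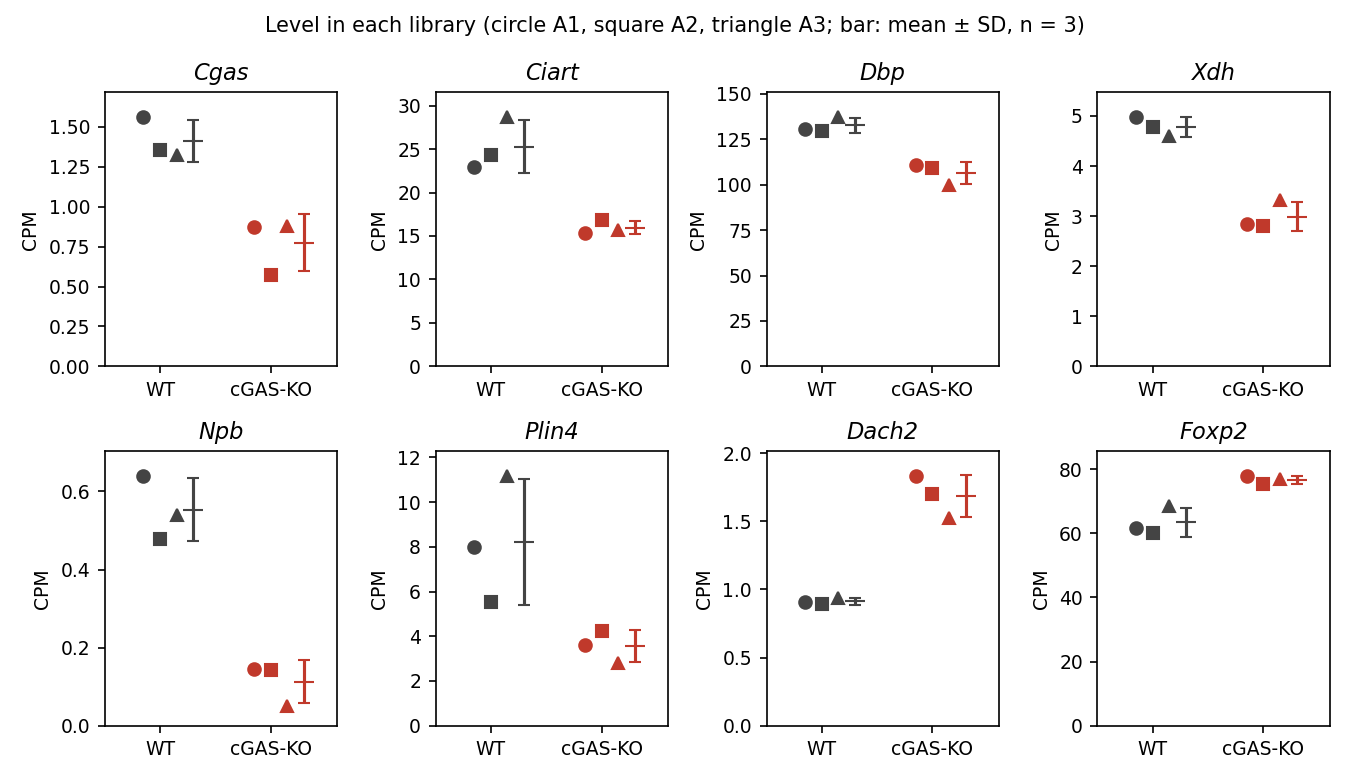
CPM in each of the 6 libraries for 8 genes, with WT in grey and cGAS-KO in red, a circle for A1, a square for A2 and a triangle for A3, and a bar for mean ± SD (n = 3). Every panel starts at 0; in each of the 8 genes the groups do not overlap, and Cgas keeps 0.572 to 0.878 CPM in the knockouts.

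Genes of the cGAS-STING pathway, 57 in all, kept levels close to WT in the knockouts. Of these, 53 passed the count filter and 0 were called. The whole interval lay within 2-fold for 48 of the 53 and within 1.5-fold for 41, beside 76.2% and 57.4% of all genes. These shares depend on level. A filter of at least 1 CPM in 3 of the 6 libraries kept 48 of the 53 pathway genes. In the fit with that filter 94.5% of all genes were bounded within 2-fold and 75.65% within 1.5-fold. Over the 53 genes of the main fit the median log2 difference was -0.03, beside 0.00 over all genes, with 35 genes lower and 18 higher. An unadjusted p under 0.05 was found for 3 lower genes and 1 higher, beside 2.27% and 1.94% of all genes, namely Cgas, Ikbke and Tyk2, and Enpp3. Downstream of the sensor, STING itself (listed as Tmem173) measured 4.89, 3.61 and 3.70 CPM in WT and 3.26, 4.50 and 5.91 CPM in cGAS-KO, with overlapping groups. The kinase Tbk1 measured 49.7, 51.3 and 54.5 CPM in WT and 53.1, 51.6 and 55.9 CPM in cGAS-KO. Irf3, the transcription factor that TBK1 phosphorylates, measured 19.6, 14.8 and 18.6 CPM in WT and 16.7, 18.5 and 16.7 CPM in cGAS-KO. For Tbk1 the interval excluded changes beyond 1.5-fold, as it did for Irf3. Ikbke, the relative of TBK1 that shares its substrates, measured 2.69, 1.59 and 1.78 CPM in WT and 1.25, 1.38 and 1.25 CPM in cGAS-KO, with no overlap (-0.64 ± 0.24).

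Carriers and enzymes of the messenger gave the same picture. Of the genes that turn over or import cGAMP, Enpp1, the main cGAMP hydrolase, measured 12.7, 9.38 and 9.20 CPM in WT and 11.7, 10.3 and 10.7 CPM in cGAS-KO. Its relative Enpp3 was rare, at 0.446, 0.377 and 0.370 CPM in WT and 0.535, 0.508 and 0.929 CPM in cGAS-KO (0.72 ± 0.28). The groups did not overlap for Enpp3 and did for Enpp1. Among the channels and carriers that admit cGAMP, Slc19a1 measured 11.6, 11.2 and 11.0 CPM in WT and 11.0, 9.98 and 9.24 CPM in cGAS-KO, and Lrrc8c measured 28.4, 29.8 and 30.9 CPM in WT and 29.3, 26.5 and 50.6 CPM in cGAS-KO. The high value of Lrrc8c was in cGAS-KO A3 alone. Tyk2, a kinase of the interferon receptor, measured 18.7, 16.8 and 19.8 CPM in WT and 16.6, 15.6 and 16.4 CPM in cGAS-KO, without overlap (-0.19 ± 0.08). The receptor chains Ifnar1 and Ifnar2 measured 42.0 to 44.6 and 10.4 to 12.1 CPM in WT, and 41.2 to 47.1 and 10.2 to 11.3 CPM in cGAS-KO, and so overlapped. Of the 9 other DNA sensors of the list, none had an unadjusted p under 0.05. The inflammasome sensor Aim2 was at 7.60 to 8.13 CPM in WT and 8.08 to 9.06 CPM in cGAS-KO, while the rare Ifi204 and Zbp1 had the lowest estimates of the 9, at -0.60 ± 0.58 and -0.40 ± 0.64, with overlapping groups. Of the 4 members below the filter, Ifnb1, Trex1 and Slc46a2 were listed at 0 in all 6 libraries and Dnase1l3 had 0 to 7 counts.

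Interferon-stimulated genes had a median slightly below WT whose size depended on single libraries. Of 73 genes, 69 were tested and 0 called, with 55 lower and 14 higher and a median log2 difference of -0.12. An unadjusted p under 0.05 was found for 2 genes, both lower, a share near the 2.27% of all genes. Ifi35 measured 2.26, 1.40 and 1.69 CPM in WT and 1.20, 1.33 and 1.17 CPM in cGAS-KO, with no overlap (-0.53 ± 0.23). Isg15, the ubiquitin-like modifier that interferon induces, measured 0.877, 1.01 and 1.12 CPM in WT and 0.373, 0.397 and 0.895 CPM in cGAS-KO, and the groups overlapped through cGAS-KO A3 (-0.86 ± 0.38). Ifit3, an antiviral effector, measured 18.0, 17.6 and 15.2 CPM in WT and 9.90, 15.1 and 14.3 CPM in cGAS-KO (-0.37 ± 0.17). The list mean in log2 CPM was 1.81, 1.46 and 1.38 in WT and 1.01, 1.28 and 1.75 in cGAS-KO. WT A1 and cGAS-KO A3, the 2 libraries that stand apart in tissue content, thus had the highest list mean of their groups. Without WT A1 the list median was -0.03, as it was without cGAS-KO A1, the lowest of the 6. Without cGAS-KO A3 it was -0.37, with 20 genes at an unadjusted p under 0.05, beside 1075 of all 20209 genes in that fit. Without both WT A1 and cGAS-KO A3 it was -0.25, with 5 such genes, beside 1696 of 20209. In cGAS-KO; HD against HD mice the median was 0.05. The whole interval lay within 2-fold for 48 of the 69 genes, beside 76.2% of all genes.

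Microglial activation, antigen presentation and complement genes had lower values in cGAS-KO, by less once WT A1 was left out. Of 19 genes of disease-associated microglia, the state that microglia take in neurodegeneration, 18 were lower in cGAS-KO, 7 with an unadjusted p under 0.05 (beside 2.27% of all genes), and the median was -0.40. Lyz2, a lysozyme of myeloid cells, measured 44.7, 17.2 and 15.5 CPM in WT and 11.0, 12.4 and 14.7 CPM in cGAS-KO, and Itgax, the integrin CD11c, measured 9.63, 1.76 and 1.42 CPM in WT and 0.842, 1.02 and 1.79 CPM in cGAS-KO. WT A1 stood more than 2-fold above every other library for both. Without WT A1 the median was -0.06 with 0 genes at an unadjusted p under 0.05. In bulk tissue, fewer cells of a type and less RNA per cell cannot be told apart. The general microglia list holds homeostatic genes such as P2ry12 beside others such as Trem2, Tyrobp and Cd68. Its 27 genes, all detected in every library, summed to 770 to 948 CPM in WT and 734 to 815 CPM in cGAS-KO. The list median was -0.10, with 19 genes lower and all 27 bounded within 2-fold. An unadjusted p under 0.05 was found for 3 lower genes (beside 2.27% of all genes), Irf8, Ctss and Tyrobp, and WT A1 was the highest library for each.

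Complement and antigen presentation genes showed the same WT A1. C4b, a central complement component made by glia, measured 272, 125 and 116 CPM in WT and 97.0, 103 and 70.0 CPM in cGAS-KO. Its near-identical neighbour C4a, whose reads can be confused with those of C4b, measured 4.58, 2.79 and 3.28 CPM in WT and 2.32, 2.07 and 1.61 CPM in cGAS-KO (-0.83 ± 0.21). Both genes were lower in every knockout. The complement list held 19 tested genes, of which 16 were lower, 5 at an unadjusted p under 0.05 (beside 2.27% of all genes), with a median of -0.35. That median became -0.07 without WT A1 and -0.16 without cGAS-KO A1. With the cortical list mean as a covariate over all 12 libraries it was -0.26, with 15 genes lower. With the cortical and choroid plexus list means together, a fit chosen after seeing the data, it was -0.33, with 17 genes lower. The cortical covariate in the fit without WT A1 and cGAS-KO A3 gave 0.10, with 6 genes lower. That fit, also chosen after seeing the data, put Cgas at -0.55 and bounded 57.4% of genes within 2-fold. Psmb9, an immunoproteasome subunit that interferon induces, measured 2.17, 1.46 and 1.38 CPM in WT and 0.972, 0.683 and 0.760 CPM in cGAS-KO, with no overlap (-1.05 ± 0.26). The 27 tested genes of antigen presentation had a median of -0.29, with 6 lower at an unadjusted p under 0.05, beside the same 2.27%. That median was -0.13 without WT A1 and -0.18 without both WT A1 and cGAS-KO A3. Over all 12 libraries it was -0.27 with the cortical covariate and -0.30 with the cortical and choroid plexus covariates. With the cortical covariate in the fit without WT A1 and cGAS-KO A3 it was -0.02. Of the NF-kB targets and cytokines, 22 of 30 were tested, 18 were lower and 3 of these had an unadjusted p under 0.05, again beside 2.27%, among them Nfkbia, the inhibitor that NF-kB itself induces, at 17.6, 18.5 and 18.2 CPM in WT and 14.7, 15.9 and 12.6 CPM in cGAS-KO.

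Endothelial and mural cell genes were lower in the knockouts by a similar amount whichever library was left out. Of 28 genes, 26 were lower and 2 higher, with a median of -0.24, and 7 were lower without overlap, beside 4.44% of all genes. Slc2a1, the glucose transporter of the blood-brain barrier, measured 65.4, 56.4 and 56.8 CPM in WT and 45.7, 51.1 and 43.2 CPM in cGAS-KO (-0.35 ± 0.10, edgeR adjusted p = 0.917). Acta2, smooth muscle actin of arteriole walls, measured 3.76, 5.94 and 3.57 CPM in WT and 2.82, 2.65 and 2.40 CPM in cGAS-KO (-0.75 ± 0.22). Flt1, a VEGF receptor, measured 28.9, 28.1 and 25.5 CPM in WT and 18.7, 24.3 and 20.8 CPM in cGAS-KO, and Abcb1a, the efflux pump P-glycoprotein, named after its values were seen, measured 19.1, 14.8 and 16.2 CPM in WT and 13.7, 14.5 and 12.0 CPM in cGAS-KO. These 4 genes, the only ones of the list with an unadjusted p under 0.05 (beside 2.27% of all genes), had no overlap between groups. The list median was -0.20 to -0.27 over the fits that left out 1 library, -0.22 without both WT A1 and cGAS-KO A3 and -0.32 in cGAS-KO; HD against HD. No gene of the list was called in any of these fits. Fibroblast and meningeal genes were also lower, 27 of 28, with a median of -0.31. An unadjusted p under 0.05 was found for 1 gene, beside 2.27% of all genes lower at that p. It was Asgr1, at 0.253, 0.702 and 0.284 CPM in WT and 0.0648, 0.143 and 0.0507 CPM in cGAS-KO. The summed level of the fibroblast list was 388 to 522 CPM in WT and 327 to 427 CPM in cGAS-KO, and so overlapped.

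Medium spiny neuron and oligodendrocyte genes were bounded more closely than genes of cortical neurons and choroid plexus. All 47 tested genes of medium spiny neurons had intervals within 2-fold and 24 within 1.5-fold. Of the 47, 46 had a positive difference, with a median of 0.18. An unadjusted p under 0.05 was found for 2 genes, both higher, beside 1.94% of all genes higher at that p. Gnal, the G protein that couples dopamine receptors to adenylyl cyclase, measured 508, 584 and 614 CPM in WT and 691, 604 and 808 CPM in cGAS-KO. Pde10a, the phosphodiesterase of these neurons, measured 587, 739 and 855 CPM in WT and 1006, 799 and 864 CPM in cGAS-KO. Both overlapped, and WT A1 was the lowest library for each. Without WT A1 the list median was 0.06 with 14 genes lower. Of the cortical projection neuron genes 24 of 48 were bounded within 2-fold, and of the interneuron genes 18 of 25, beside 76.2% of all genes. The cortical list had a median of 0.14, which turned to -0.53 without WT A1 and cGAS-KO A3. Choroid plexus genes had a median of -0.32 with 0 of 23 genes bounded within 2-fold, and 1.22 without those 2 libraries. Oligodendrocyte genes, all 30 bounded within 2-fold, had a median of -0.16 that turned to 0.07 without them, and astrocyte genes a median of -0.06 with 22 of 24 bounded, which turned to 0.02. The direction of these 4 lists of cortical, choroid plexus and glial genes thus depended on those libraries, and that of the medium spiny neuron list did not.

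**Figure D3:**
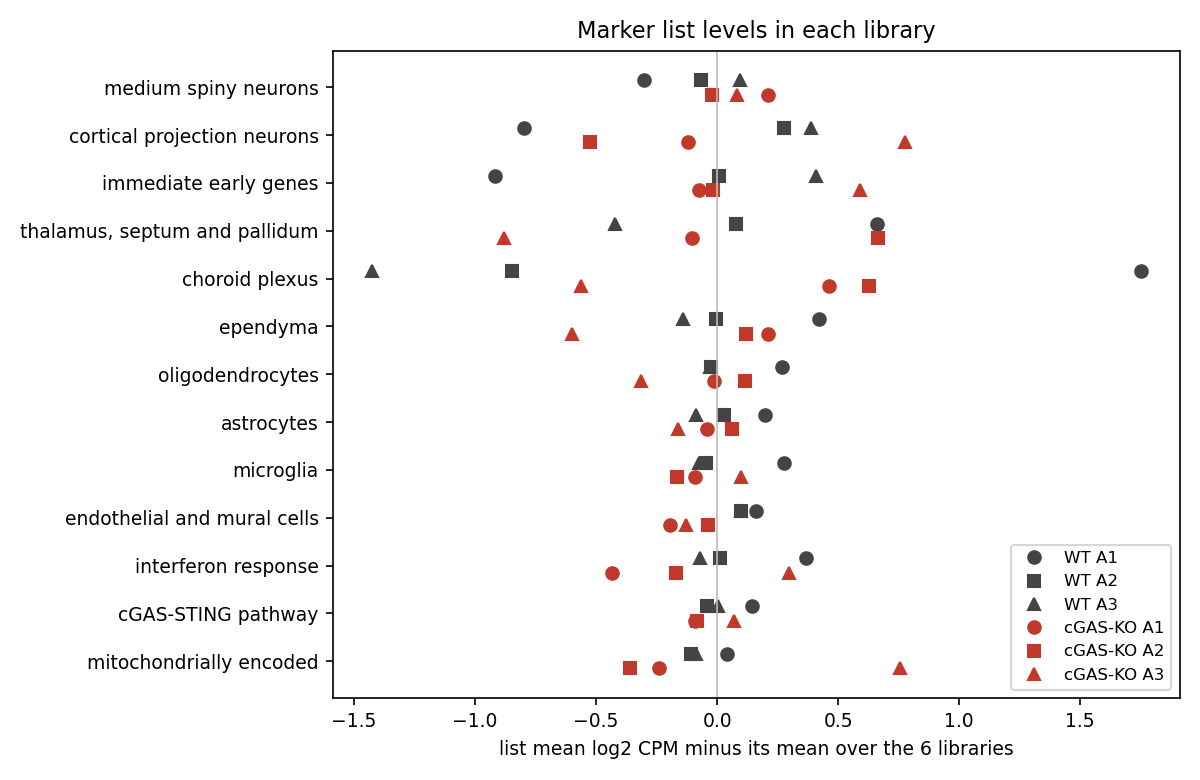
Mean log2 CPM of 13 gene lists in each library, less the mean of that list over the 6 libraries, with WT in grey, cGAS-KO in red, a circle for A1, a square for A2 and a triangle for A3. The widest range is that of the choroid plexus list, with WT A1 far to the right, and the endothelial and mural list is the only one drawn in which every knockout lies below every WT library.

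Most of the spread between replicates came from WT A1 and cGAS-KO A3. Over 15228 genes with a mean of at least 1 CPM, the contrast of WT A1 with WT A2 and A3 held 85.9% of the within-group sum of squares of log2 CPM in WT, and that of cGAS-KO A3 with cGAS-KO A1 and A2 held 84.0% in cGAS-KO, where an even spread would give 50%. The median standard deviation of a gene was 0.112 log2 among the 3 WT libraries and 0.0609 between WT A2 and A3. Among the 3 cGAS-KO libraries it was 0.184, and 0.0782 between A1 and A2. HD and cGAS-KO; HD had 0.103 and 0.111 over 3 libraries each. The median standard deviation of 2 values lies below that of 3 values of equal spread, so part of each drop is built in. The 2 libraries were named with earlier results known, and 50% is not the reference for libraries picked in that way. The biological coefficient of variation of the fit over 12 libraries was 17.7%, and 12.1% without these 2 libraries.

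The 2 libraries departed in opposite directions along several tissue lists and in the same direction along others. Genes of cortical projection neurons, which lie just above the striatum, had a median of 0.95 log2 less in WT A1 than in WT A2 and A3, whereas they had 1.26 more in cGAS-KO A3 than in cGAS-KO A1 and A2. Slc17a7, the vesicular glutamate transporter of cortical neurons, measured 54.9, 377 and 444 CPM in WT and 173, 86.7 and 618 CPM in cGAS-KO. Neurod6, a cortical transcription factor, measured 2.69, 34.9 and 48.8 CPM in WT and 19.7, 6.20 and 98.9 CPM in cGAS-KO. WT A1 was the lowest and cGAS-KO A3 the highest of all 6 for both genes. Choroid plexus genes, of the ventricular tissue that borders the striatum, departed by 2.87 in WT A1 and -1.10 in cGAS-KO A3. Ttr, transthyretin, measured 1764, 112 and 45.7 CPM in WT and 779, 859 and 189 CPM in cGAS-KO. The 23 choroid plexus markers, all detected in each library, summed to 473 to 3516 CPM in WT and 709 to 1765 CPM in cGAS-KO. The list of thalamus, septum and pallidum departed by 0.84 and -0.83, ependyma by 0.58 and -0.78, oligodendrocytes by 0.28 and -0.28, and immediate early genes by -1.09 and 0.63. Both libraries were higher than their groups along the interferon list, by 0.31 and 0.42, and along the complement (0.60 and 0.33), NF-kB (0.43 and 0.27), microglia (0.34 and 0.25), fibroblast (0.31 and 0.43) and mitochondrially encoded lists (0.13 and 1.12). Both were lower along the medium spiny neuron list, with medians of -0.37 and -0.09. Across genes, which are not independent, the departures of both libraries had a correlation of -0.26.

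Peptides of the hypothalamus, which are not made in striatum and were picked out with their values in view, split the libraries in another way. Pmch, melanin-concentrating hormone, measured 131, 3.05 and 0.227 CPM in WT and 0.324, 99.3 and 0.287 CPM in cGAS-KO. Hcrt, orexin, measured 37.2, 0.616 and 0 CPM in WT and 0, 17.1 and 0 CPM in cGAS-KO. WT A1 and cGAS-KO A2 were high for both, whereas cGAS-KO A3 was low for Avp, vasopressin, at 0.186 CPM against 3.17 to 25.8 CPM in the other 5. More than a 2-fold departure from the group was found for 429 genes in WT A1 and 771 in cGAS-KO A3.

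**Figure D4:**
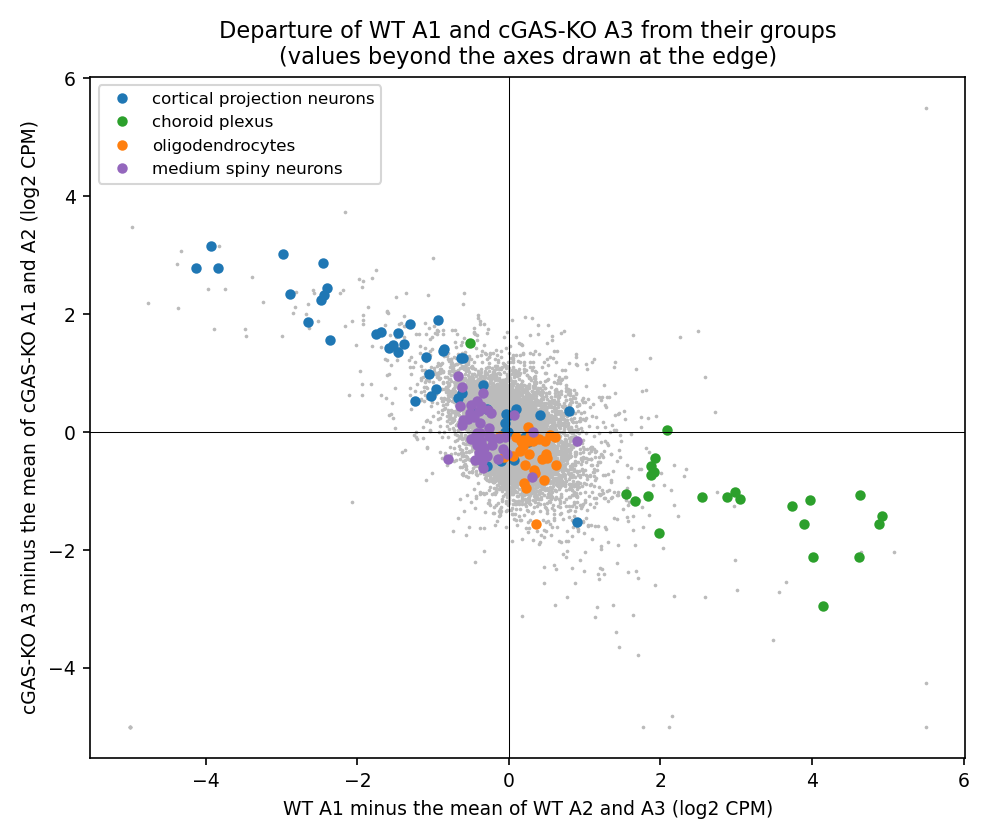
Departure of cGAS-KO A3 from cGAS-KO A1 and A2 (y axis, log2 CPM) against the departure of WT A1 from WT A2 and A3 (x axis, log2 CPM), 1 point per gene with a mean of at least 1 CPM, with 4 marker lists in colour and values beyond the axes drawn at the edge. Cortical genes lie to the upper left (medians -0.95 and 1.26) and choroid plexus genes to the lower right (medians 2.87 and -1.10).

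The share of replicate spread that follows each gene list was measured along the deviation of its mean, over 14897 genes outside the cell type lists. The 6 libraries leave 4 directions within groups, so a direction holds 25% when all spread alike. The direction of the cortical list held 53.7%, that of oligodendrocytes 54.7%, of thalamus, septum and pallidum 53.2%, of ependyma 52.1% and of choroid plexus 43.5%. Other lists held shares above that of choroid plexus, with 50.4% for astrocytes, 49.9% for interneurons, 48.9% for mitochondrially encoded genes, which were high in cGAS-KO A3, and 44.9% for immediate early genes. The plane of the cortical and choroid plexus lists together held 81.0%, where an even spread gives 50% and the first 2 principal components, the most that any plane can hold, gave 88.2%. These directions overlap and cannot be added. Lists not named for a tissue or cell type were above 25% too. Autophagy and lysosome genes held 34.8%, p53 and senescence genes 33.6%, the cGAS-STING pathway 32.1% and cholesterol and lipid genes 28.8%. A share above 25% is therefore not particular to tissue lists, and a mean over many genes leans toward the larger directions of spread. Endothelial and mural genes and C57BL/6 substrain genes followed the spread least, with 22.1% and 13.2%.

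**Figure D5:**
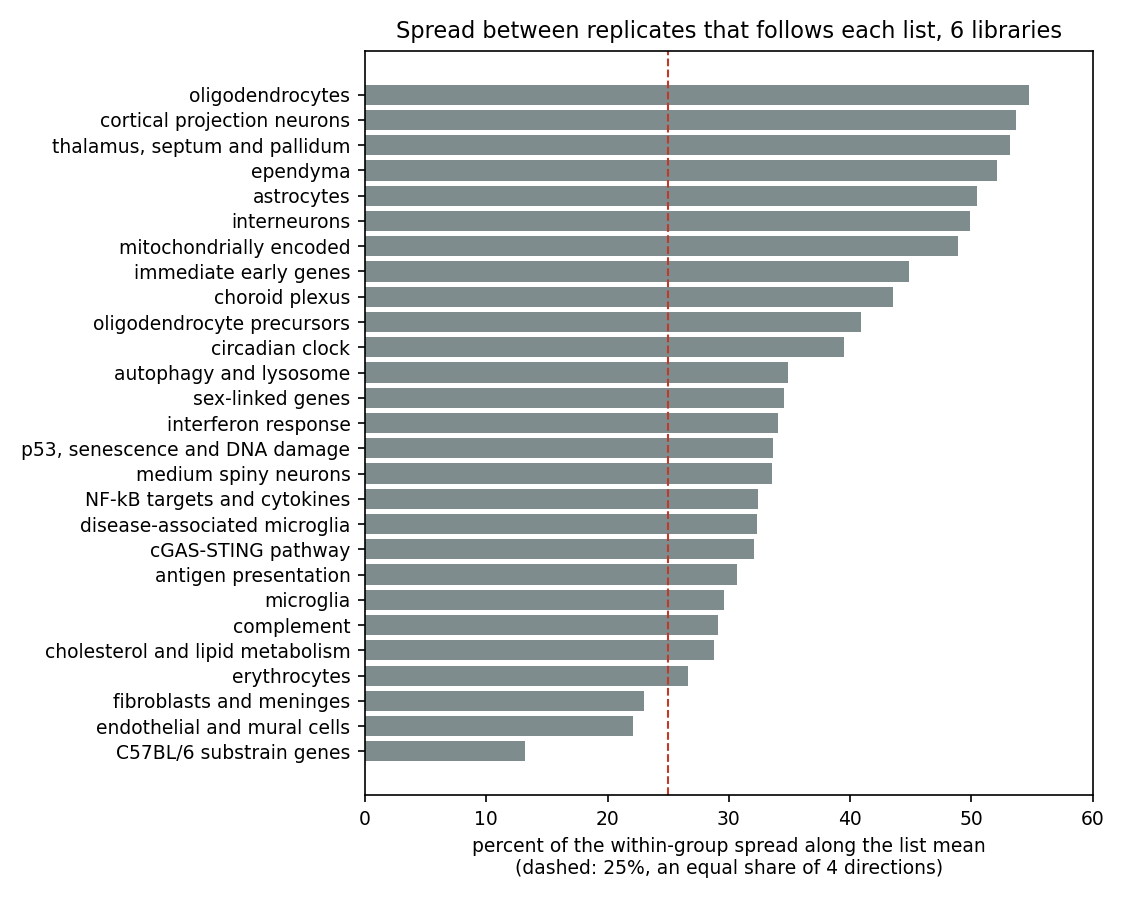
Percent of the within-group spread of 14897 genes outside the cell type lists that lies along the within-group deviation of each of 27 list means over the 6 libraries, with a dashed line at 25%, the share of 1 direction of 4. Oligodendrocyte, cortical and thalamic lists lead with over 50%, and C57BL/6 substrain genes are lowest with 13.2%.

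Leaving out WT A1 and cGAS-KO A3 together changed the calls. With 2 libraries a group, in a fit that shares its estimate of spread with HD and cGAS-KO; HD, 35 genes passed (0.173%), all lower in cGAS-KO, with 1696 at an unadjusted p under 0.05. Of these genes, 33 were lower in WT A1 than in the other WT libraries and also higher in cGAS-KO A3 than in the other knockouts, as cortical genes were, and 31 had their highest level of all 6 in cGAS-KO A3. Stx1a, syntaxin 1A, measured 32.2, 84.8 and 92.5 CPM in WT and 48.8, 36.5 and 108 CPM in cGAS-KO, and Mical2, an actin regulator, 73.0, 127 and 143 CPM in WT and 82.3, 73.5 and 175 CPM in cGAS-KO. In these remaining 4 libraries the cortical list was lower in cGAS-KO, with a summed level of 4675 and 5246 CPM in WT and 3873 and 3181 CPM in cGAS-KO, and the choroid plexus list higher, with 578 and 473 against 1652 and 1765 CPM. With the cortical list mean added as a covariate to the fit without WT A1 and cGAS-KO A3, 0 genes passed, with 1271 at an unadjusted p under 0.05. Its slope was estimated over all libraries of that fit, HD and cGAS-KO; HD included, and not within these 4 alone. The covariate fit was less precise, with 57.4% of genes bounded within 2-fold beside 72.9% without the covariate. In it Cgas was at -0.55 (edgeR unadjusted p = 0.328). The loss of calls thus cannot be told apart from the wider intervals. Ciart and CT010467.1 were among the 35, with log2 differences of -0.72 and -0.62. Under the covariate their differences were -0.74 and -0.81, no smaller, while the calls were lost (edgeR adjusted p = 0.700 and 0.611). Zbtb16, a transcription factor known to respond to glucocorticoids, was called too, at 14.2, 19.9 and 23.9 CPM in WT and 10.6, 13.5 and 18.4 CPM in cGAS-KO. It is among the 33 genes that moved as cortical genes did, with a correlation of 0.76 with the cortical list mean over 12 libraries. With all 3 replicates its groups overlapped (-0.45 ± 0.21).

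The comparison of mice labelled cGAS-KO; HD with HD mice, whose Cgas levels overlapped, shares no library with the comparison above. In the same fit it called 1 gene (0.00495%), the pseudogene Mid1-ps1, with 1201 at an unadjusted p under 0.05. Of the 647 genes with an unadjusted p under 0.05 in normal striatum and a mean of at least 1 CPM over the 12 libraries, 474 (73.3%) had the same sign in knock-in mice and 64 also had an unadjusted p under 0.05 there, beside 66.3% with the same sign among all 15251 genes of that level. Across these genes both effects had a correlation of 0.35, and of -0.39 once WT A1 and cGAS-KO A3 were left out. Ciart, at -0.66 in normal striatum, was at -0.22 in knock-in mice, Dbp at -0.31 and 0.03, and Plin4 at -1.21 and 0.22. The interaction was called for 0 of these 3 genes, and a p that misses the threshold does not show that both effects are alike.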

How the data were processed

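Poly(A) RNA of striatal tissue was made into directional libraries, per the labels' protocols. The authors deposited 1 file of raw read counts by Ensembl gene ID per library. Their aligner, annotation, build and strand setting were not stated in the sources at hand. Groups and replicate numbers come from the sample titles, and 55141 of 55487 gene IDs (99.4%) received a symbol from GENCODE M21 (GRCm38).

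Genes with at least 10 counts in at least 3 of the 6 cGAS-KO and WT libraries were kept. edgeR 4.0.16 fitted 1 mean per group over all 12 libraries (TMM factors, robust quasi-likelihood, 8 residual degrees of freedom), and Benjamini-Hochberg adjusted p-values under 0.05 over all tested genes were calls. Errors of log2 differences are standard errors of that fit, with 95% intervals at its total degrees of freedom. Total counts per library limit the precision of genes below 1 CPM, whose intervals are the widest in the median; more abundant genes also have wide intervals where replicates differ. The spread was split from log2 CPM with a prior count of 1. Alternatives were DESeq2 1.42.0, its size factors, limma-voom 3.58.1, other filters, the 6 libraries alone, a replicate block, covariates for the cortical list or Xist, and leaving out libraries (R 4.3.3). Scripts were tested on simulated counts.

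The members, the 27 lists and the tests were chosen with earlier results of these data known. Named genes are Cgas, Htt, the pathway members, the 12 with the smallest p each way, the 3 of each other list with the smallest p, the 3 most abundant members of each cell type list, the genes farthest from their group in WT A1 and cGAS-KO A3, and the neighbours of Cgas. Genes said to be named after their values were seen, and those called only by an alternative, are outside that rule. Some genes that the rule names are not reported here. Replicates are separate mice, per the labels. The replicate numbers did not pair WT with cGAS-KO libraries.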

Additional observations from a re-analysis of the deposited data

Results flagged for a closer look

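The difference between knockout and control libraries in Mid1-ps1, a pseudogene of the midline gene Mid1, was not the same in normal and in knock-in striatum by edgeR's test of the interaction, whereas limma-voom called the interaction for 0 genes. It measured 0.491, 0.394 and 0.370 CPM in WT and 0.583, 0.334 and 0.558 CPM in cGAS-KO, against 6.97, 5.51 and 6.86 CPM in HD and 0.847, 0.744 and 1.08 CPM in cGAS-KO; HD. The log2 difference, knockout minus control as labelled, was 0.23 ± 0.26 in normal striatum and -2.85 ± 0.23 in knock-in striatum (edgeR adjusted p = 0.000497), and the difference between both was -3.08 ± 0.35 (edgeR adjusted p = 0.0179), lower in 3 of 3 cGAS-KO; HD libraries. HD was the only group with high values, and Cgas levels overlapped between HD and cGAS-KO; HD. Reads of a pseudogene can be shared with its parent gene, and the cause was not tested.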

How the results depend on the processing

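Over the fits that left out 1 library each, 0 to 0 genes were called, 70.9% to 74.5% of genes were bounded within 2-fold and 49.6% to 58.5% within 1.5-fold, and the log2 difference of Cgas ran from -0.97 to -0.69. The count of 0 called genes also held with DESeq2 size factors, no count filter, a filter of 1 CPM, limma-voom, the 6 libraries alone and the covariates for Xist, for the cortical list and, chosen after seeing the data, for the cortical and choroid plexus lists together (smallest adjusted p = 0.0524). It became 7 with DESeq2's Wald test and 35 without WT A1 and cGAS-KO A3, and 0 again with the cortical list as a covariate in that last fit, an alternative chosen after seeing the data in which 35.4% of genes were bounded within 1.5-fold. Without the count filter, which adds rare genes, 45.7% were bounded within 2-fold and 34.4% within 1.5-fold. The interaction was called for 104 genes without WT A1 and cGAS-KO A3 and for 0 by limma-voom, and the cause was not tested. Over all 12 libraries, where 1 direction of 8 holds 12.5% and 2 hold 25% when all spread alike, the cortical, oligodendrocyte and choroid plexus lists held 36.3%, 36.1% and 19.7% of the within-group spread and the plane of the first and last 51.1%. The log2 difference of Htt ran from -0.0700 to 0.0323 over the fits that left out 1 library, the last without cGAS-KO A3, and turned to 0.0154 without WT A1 and cGAS-KO A3 and to 0.0111 with the cortical covariate in that fit, which turned Tyk2 to 0.0146. Of the values of single genes under the alternatives, 572 kept their direction and side of the threshold, 9 passed it and 4 reversed. Same-numbered WT and cGAS-KO libraries had correlations of -0.08, -0.14 and 0.30 in their deviations, so the numbers were not taken as pairs, and with the replicate number as a block 0 genes were called, with 702 at an unadjusted p under 0.05.

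Depth limits the comparison below 1 CPM, where most interferon genes that were not bounded within 2-fold lie. With 3 mice a group, differences that follow tissue content or the time of day cannot be told apart from the knockout where they happen to move with it.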

Other observations

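Some genes known to respond to glucocorticoids, the stress hormones whose level also follows the time of day, were lower in every knockout than in every control, and others were not. A set of 14 such genes, of which only Plin4 is among the 12 lower genes with the smallest p, chosen after some of their values were seen and therefore given no test, held 9 lower and 5 higher in cGAS-KO, of which 4 were lower without overlap between the groups, beside 4.44% of all genes. Sgk1, a serum- and glucocorticoid-regulated kinase, measured 106, 83.8 and 92.9 CPM in WT and 74.8, 66.7 and 63.8 CPM in cGAS-KO. Hif3a, a hypoxia-inducible factor subunit, measured 10.2, 11.7 and 10.9 CPM in WT and 5.72, 6.77 and 7.86 CPM in cGAS-KO, and Fmo2, a monooxygenase, 6.18, 3.51 and 3.25 CPM in WT and 1.41, 1.78 and 1.52 CPM in cGAS-KO. Each of these was lower in every knockout than in every control, as was Plin4. The other members did not move together: Fkbp5, the best-known target of the receptor in brain, measured 26.3, 29.9 and 34.0 CPM in WT and 32.5, 31.3 and 26.3 CPM in cGAS-KO, and Pdk4 measured 11.1, 9.81 and 12.0 CPM in WT and 10.1, 11.8 and 11.8 CPM in cGAS-KO, with overlap in both.

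The metallothionein genes, which respond to metals and to stress, differed between libraries. Mt1 measured 232, 155 and 152 CPM in WT and 130, 136 and 344 CPM in cGAS-KO, with cGAS-KO A3 the highest of all 6. Its neighbour Mt2 measured 141, 86.0 and 87.0 CPM in WT and 67.4, 76.6 and 97.9 CPM in cGAS-KO, with WT A1 the highest.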
